A study of Mus musculus with 2 samples.

Results

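Pericyte transcripts were examined in mouse mammary cells sorted through an endothelial gate, by way of 9 genes used as pericyte markers: Rgs5, Pdgfrb, Cspg4, Kcnj8, Abcc9, Notch3, Higd1b, Vtn and Ndufa4l2. The members were taken by gene symbol, and the 9 were found among 17333 genes listed in either library. RNA sequencing had been run on 2 libraries of freshly sorted cells from adult virgin mice aged 8 weeks, and neither strain nor number of animals is stated in the sources at hand. Both libraries came from cells without lineage markers (Lin-) that carried CD105, CD31 and Sca1 on their surface. They differ in surface Procr, the endothelial protein C receptor: 1 library is Procr-positive (Procr+) and 1 is Procr-negative (Procr-). With 1 library per group no difference has a replicate check, no p-value is given, and every bracketed range is a 95% interval that covers counting error only.

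Pericytes are mural cells that lie on the outer face of capillaries and venules within the vessel's basement membrane. Endothelial cells recruit them by releasing PDGF-B, which acts on the receptor PDGFRB of the pericyte, and contact between the cells also signals through Notch ligands and NOTCH3. Pericytes share contractile genes with smooth muscle cells, and CD31, one of the markers of the sorting gate, is not a pericyte antigen.

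The 9 genes were all higher in the Procr+ library, as the endothelial genes were. On the log2(RPKM + 1) scale used below, each passed 2-fold, against 13.1% of 12509 genes. By its marker genes, the Procr- library carried far more luminal epithelial than endothelial RNA. The 9 genes did not all differ to the same degree. The secreted adhesion protein gene Vtn, Rgs5, Ndufa4l2 and Higd1b had ratios of more than 12-fold, above the pan-endothelial median of 9.80-fold. The intervals of Ndufa4l2 (9.20 to 18.5) and Higd1b (5.78 to 31.9) held that median, and Higd1b had only 7 reads in the Procr- library. Notch3, at 2.69-fold, lay below each of 20 pan-endothelial genes. Kcnj8, Pdgfrb, Abcc9 and Cspg4 lay in between, at 9.35-fold, 5.86-fold, 4.66-fold and 3.82-fold. These folds are ratios of RPM, the reads scaled to the library total, Procr+ over Procr-.

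The start regions of 4 members are shown because they carry the contrasts described: Kcnj8 and Abcc9 are neighbours on chromosome 6 that encode subunits of 1 channel, and Vtn and Notch3 had the highest and the lowest fold. The windows are RefSeq sequences of GRCm38.p6, 250 bases before to 50 bases after an annotated gene start, written 5′ to 3′ on the gene's strand. They are chr6:142571565-142571864 (minus strand) for Kcnj8, chr6:142702225-142702524 (minus) for Abcc9, chr11:78498870-78499169 (plus) for Vtn and chr17:32166841-32167140 (minus) for Notch3. Capitals mark TGGGAA on either strand, the core letters bound by RBPJ, the DNA-binding partner of Notch receptors.
Kcnj8: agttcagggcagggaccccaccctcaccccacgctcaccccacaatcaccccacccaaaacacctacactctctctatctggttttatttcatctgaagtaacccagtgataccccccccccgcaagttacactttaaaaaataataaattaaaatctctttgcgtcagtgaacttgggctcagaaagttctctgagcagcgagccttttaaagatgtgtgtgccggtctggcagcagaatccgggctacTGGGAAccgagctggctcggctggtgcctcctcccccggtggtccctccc
Abcc9: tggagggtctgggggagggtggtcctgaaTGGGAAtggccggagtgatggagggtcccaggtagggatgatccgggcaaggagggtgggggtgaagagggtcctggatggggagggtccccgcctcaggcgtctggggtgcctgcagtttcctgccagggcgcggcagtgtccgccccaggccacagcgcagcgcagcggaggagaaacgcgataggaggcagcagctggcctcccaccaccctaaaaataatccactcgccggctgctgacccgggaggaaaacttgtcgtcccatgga
Vtn: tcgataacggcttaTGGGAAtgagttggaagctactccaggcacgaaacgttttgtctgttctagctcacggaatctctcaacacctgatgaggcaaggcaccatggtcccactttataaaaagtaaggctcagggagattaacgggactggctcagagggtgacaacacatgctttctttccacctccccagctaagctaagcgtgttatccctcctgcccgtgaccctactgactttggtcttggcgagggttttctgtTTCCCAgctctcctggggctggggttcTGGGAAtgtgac
Notch3: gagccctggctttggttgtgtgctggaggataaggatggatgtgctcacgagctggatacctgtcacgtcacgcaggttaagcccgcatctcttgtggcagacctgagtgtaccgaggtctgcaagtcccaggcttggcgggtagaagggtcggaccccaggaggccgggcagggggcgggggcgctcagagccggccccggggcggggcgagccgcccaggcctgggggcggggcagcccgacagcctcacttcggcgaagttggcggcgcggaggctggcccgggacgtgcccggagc
Of the 9 members, 6 had a window in the RefSeq table. TGGGAA occurred in 3 of these 6, with 1 match in Kcnj8, 1 in Abcc9 and 3 in Vtn, and in 25.6% of 32851 windows of all genes. GGGCGG, the letters of the SP1 box, occurred in 3 of the 6 (Abcc9, Cspg4 and Notch3) and in 35.7% of all windows, and TATAAA in Vtn alone and in 13.6% of all windows. A MEF2 motif, read on both strands as a palindrome, began 8 bases before the start of Abcc9 and occurred in 3.19% of all windows. No CArG box, the motif bound by serum response factor, was found in the 6 windows, and 1.63% of all windows held one. The Notch3 window had a GC content of 70.0%, against 51.7% for Vtn and a median of 52.7% over all windows. The motifs were chosen after the sequences were seen, and a match is a run of letters only.

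The libraries held 9.22 M unique reads on 16247 listed genes (Procr+) and 9.57 M on 16582 listed genes (Procr-). The endothelial label was checked against its markers. All 20 pan-endothelial genes were listed in both libraries, and they summed to 2762 RPKM (reads per kb of gene and M reads) in the Procr+ and 316 RPKM in the Procr- library. The 9 luminal epithelial genes summed to 787 RPKM and 17866 RPKM, and the 10 fibroblast genes to 175 and 749 RPKM. The 6 Schwann genes summed to 8.24 and 59.3 RPKM, with Cdh19 at 0 reads in the Procr- library, and the 7 immune genes to 65.6 and 28.0 RPKM. The 7 basal epithelial genes, which share Acta2 and Cnn1 with smooth muscle, summed to 287 and 205 RPKM. Without these shared genes, the other 5 went the other way, at 91.3 and 166 RPKM. Of the gate's own genes, Pecam1 (CD31) was at 712 and 52.7 RPKM, Eng (CD105) at 394 and 38.3 RPKM, Ly6a (Sca1) at 203 and 486 RPKM, and Procr at 1321 and 147 RPKM. For each 100 RPKM of summed pan-endothelial level, Procr was at 47.8 (47.1 to 48.5) in the Procr+ and 46.7 (44.7 to 48.7) in the Procr- library, so its transcript was close to level relative to endothelial RNA. By these lists the library labelled Procr- carried far more luminal epithelial than endothelial RNA, although CD31 was in its gate. In such bulk libraries fewer cells of a type and less RNA per cell cannot be told apart.

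The members lay at very different levels. In the Procr+ library the highest, Rgs5, exceeded the lowest, Cspg4, 45.4-fold in RPKM, and in the Procr- library the highest, Notch3, exceeded the lowest, Higd1b, 33.9-fold. Ordered by RPKM, the Procr+ library ran Rgs5, Notch3, Vtn, Ndufa4l2, Pdgfrb, Kcnj8, Abcc9, Higd1b and Cspg4. Of these neighbours Abcc9 and Higd1b did not differ beyond counting error (ratio 1.02, 0.815 to 1.29). In the Procr- library the order was Notch3, Rgs5, Pdgfrb, Ndufa4l2, Kcnj8, Vtn, Abcc9, Cspg4 and Higd1b. There the neighbours from Ndufa4l2 to Abcc9 could not be separated, nor could Cspg4 and Higd1b (1.11, 0.515 to 2.84). Reads covered 75.3% to 99.85% of the listed length of the members in the Procr+ and 39.2% to 99.2% in the Procr- library, with Higd1b the least covered in each.

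**Figure D1:**
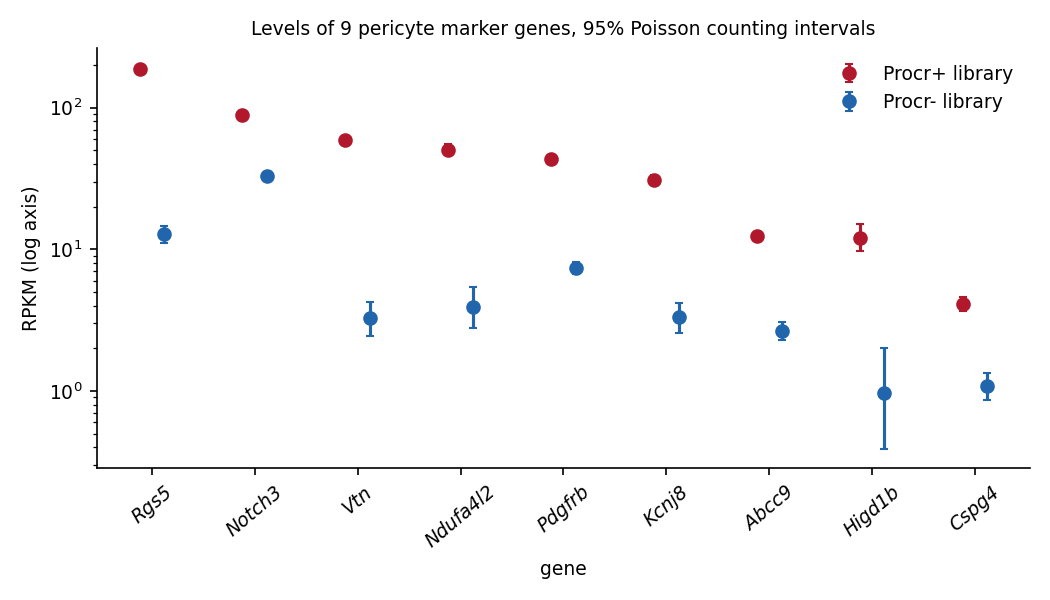
Level of each of the 9 genes in RPKM (log axis) in the Procr+ (red) and Procr- (blue) library, with 95% Poisson counting intervals. The red point lies above the blue one for each gene, and the ratio is smallest for Notch3, at 88.5 and 32.9 RPKM.

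Rgs5 encodes a GTPase-activating protein that shortens signalling of G protein-coupled receptors and is among the most used pericyte transcripts (NCBI gene 19737, chr1:169655501-169695813). It had 3122 reads or 187 RPKM (181 to 194) in the Procr+ library, rank 383 of all listed genes. In the Procr- library it had 221 reads or 12.8 RPKM (11.1 to 14.6), rank 5084. Its RPM ratio was 14.7-fold (12.8 to 16.9), above 17 of the 20 pan-endothelial genes. Reads covered 99.5% of the gene's listed length in the Procr+ library and 96.4% in the Procr-, as given in the authors' coverage column.

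Pdgfrb encodes the receptor through which endothelial PDGF-B holds pericytes on the vessel (NCBI gene 18596, chr18:61045127-61085067). Its level was 43.1 RPKM (41.3 to 45.0) from 2151 reads in the Procr+ and 7.36 RPKM (6.64 to 8.14) from 381 reads in the Procr- library. The ratio was 5.86-fold (5.25 to 6.55), above only 3 of the 20 pan-endothelial genes. Fibroblasts also carry this receptor. In the Procr- library 9 of 10 fibroblast genes were 2-fold higher, against 23.7% of 12509 genes with at least 1 RPKM in a library. Among the 9, Pdgfra, Fbln1 and Mfap5 reached 1 RPKM only in the Procr- library. What part fibroblasts had in the Pdgfrb reads there was not tested.

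Cspg4 encodes a membrane proteoglycan of pericytes, known as the NG2 antigen (NCBI gene 121021, chr9:56865104-56899870). It was the lowest member in the Procr+ library, at 4.12 RPKM (3.67 to 4.61) from 306 reads, and stood at 1.08 RPKM (0.859 to 1.34) from 83 reads in the Procr- library. Its ratio of 3.82-fold (2.99 to 4.94) exceeded that of 1 pan-endothelial gene, Cldn5 (3.62-fold, 3.32 to 3.96). Reads covered 78.3% of its length in the Procr+ and 39.5% in the Procr- library.

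Notch3 encodes the Notch receptor of mural cells (NCBI gene 18131, chr17:32120820-32166896). It had the most reads of the 9 genes in both libraries, 6483 in the Procr+ and 2503 in the Procr-. This corresponded to 88.5 RPKM (86.4 to 90.7) and 32.9 RPKM (31.7 to 34.3). The ratio of 2.69-fold (2.57 to 2.81) was the lowest of the 9, below all 20 pan-endothelial genes, and its interval did not reach the interval of Cldn5. Luminal progenitors of the mouse mammary gland are also known to express Notch3, and the luminal list was at 17866 summed RPKM in the Procr- against 787 in the Procr+ library. Their part in the Notch3 reads was not tested.

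Kcnj8 and Abcc9 encode the pore and the sulfonylurea receptor subunit of the vascular ATP-sensitive potassium channel, which hyperpolarises mural cells when ATP falls. The genes are neighbours, Kcnj8 at chr6:142564837-142571614 and Abcc9 at chr6:142587862-142702766, with 16247 bases between them. Kcnj8 was at 30.8 RPKM (28.5 to 33.4) from 622 reads and at 3.30 RPKM (2.57 to 4.17) from 69 reads. Abcc9 was at 12.3 RPKM (11.5 to 13.2) from 858 reads and at 2.65 RPKM (2.29 to 3.05) from 191 reads. Neither gene was at similar levels in the libraries, but Kcnj8 differed more, at 9.35-fold (7.28 to 12.2), than Abcc9, at 4.66-fold (3.98 to 5.48). The level of Kcnj8 relative to Abcc9, as a ratio of RPKM, was therefore 2.50 (2.25 to 2.77) in the Procr+ and 1.24 (0.931 to 1.65) in the Procr- library.

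Higd1b and Ndufa4l2 encode small mitochondrial proteins related to subunits and assembly factors of the respiratory chain, and are markers of pericytes in mouse tissues. Ndufa4l2 (chr10:127509274-127517154) was at 50.5 RPKM (46.0 to 55.3) from 459 reads and at 3.92 RPKM (2.76 to 5.41) from 37 reads, a ratio of 12.9-fold (9.20 to 18.5). Higd1b (chr11:102835761-102844141) rested on 84 and 7 reads, at 12.1 RPKM (9.65 to 15.0) and 0.972 RPKM (0.391 to 2.002). Its ratio of 12.4-fold (5.78 to 31.9) had the widest interval of the 9. It was the only member under 1 RPKM in a library, so it passed the filter of 1 RPKM only through the Procr+ one. Higd1b overlaps Eftud2 and Ndufa4l2 overlaps Shmt2 in the annotation, and any use of strand in counting is not given, so reads of these pairs could have been assigned to either gene.

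Vtn encodes vitronectin, a plasma and matrix adhesion protein made chiefly by the liver and, in the mouse brain, by pericytes (NCBI gene 22370, chr11:78499120-78502325). It was at 58.8 RPKM (55.1 to 62.6) from 955 reads in the Procr+ and at 3.26 RPKM (2.46 to 4.25) from 55 reads in the Procr- library. The ratio of 18.0-fold (13.7 to 24.1) was the highest of the members and lay above all 20 pan-endothelial genes. Its interval overlapped that of the highest of them, Emcn (16.6-fold, 14.8 to 18.7).

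**Figure D2:**
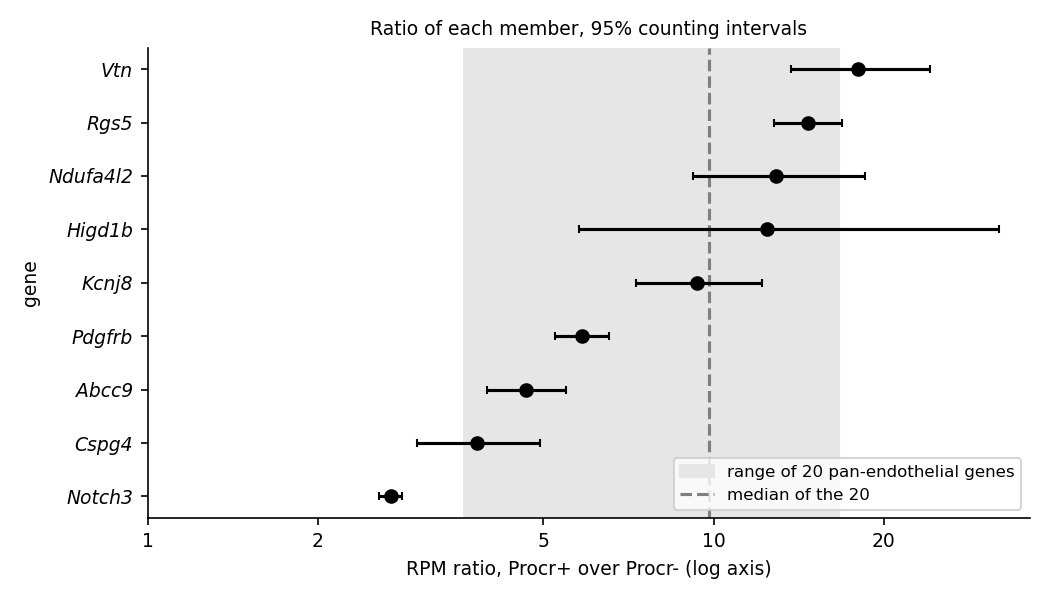
RPM ratio of each member, Procr+ over Procr- (log axis), with 95% counting intervals, beside the range (grey, 3.62 to 16.6) and median (dashed, 9.80) of 20 pan-endothelial genes. The members spread from 2.69 for Notch3 to 18.0 for Vtn.

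Pericyte transcripts were higher in the same library as the endothelial ones. On the log2(RPKM + 1) scale, all 9 passed 2-fold towards the Procr+ library, against 13.1% of 12509 genes with at least 1 RPKM in a library, and none was 2-fold lower, against 23.7%. At 4-fold 6 of 9 passed, against 4.83% of all genes. The median log2 difference of the members was 2.73, that of the 20 pan-endothelial genes 3.16 and that of all 12509 genes −0.38, so the members' median lay 0.43 below the endothelial one and 3.11 above that of all genes. On that scale the middle member is Higd1b, which has 7 reads in the Procr- library and reached 1 RPKM only in the other, so the median is poorly measured. The difference from the endothelial median, −0.43, also depended on the processing. It was −0.10 with a pseudocount of 0.1 RPKM. Over the alternative settings it went from −0.51 with upper-quartile scaling to −0.08 for RPM with a prior of 1 read. As RPM ratios the medians were 9.35-fold, the value of Kcnj8, and 9.80-fold. The highest member ratio was 6.70 times the lowest, against 4.59 times among the pan-endothelial genes, but 4.71 times without Notch3, an alternative added after seeing the data. In the order of folds, the intervals of neighbours overlapped except between Kcnj8 and Pdgfrb and between Cspg4 and Notch3.

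The level of pericyte relative to endothelial RNA was also set within each library. The 9 members summed to 487 RPKM in the Procr+ and 68.3 RPKM in the Procr- library, a 7.14-fold difference, against 8.75-fold for the pan-endothelial sum. For every 100 RPKM of summed pan-endothelial level there were 17.6 RPKM of the members in the Procr+ and 21.6 RPKM in the Procr- library. This order turned on Notch3. Without Notch3, an alternative chosen after seeing the data, the values were 14.4 and 11.2 RPKM, and the summed members differed 11.3-fold. The library with the larger relative sum was then the Procr+ one.

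By gene, the same measure separated the members. For each 100 RPKM of pan-endothelial level, Rgs5 was at 6.78 in the Procr+ and 4.05 in the Procr- library, and Vtn at 2.13 and 1.03. Kcnj8 was nearly level, at 1.12 and 1.04, and the interval of the latter (0.813 to 1.32) held the former. Pdgfrb stood at 1.56 and 2.33, Abcc9 at 0.447 and 0.839, Cspg4 at 0.149 and 0.342, and Notch3 at 3.21 and 10.4. Relative to endothelial RNA, these 4 genes were thus higher in the Procr- library, whereas Rgs5 and Vtn were higher in the Procr+. Ndufa4l2 was at 1.83 (1.66 to 2.003) and 1.24 (0.875 to 1.71), with intervals that overlapped. The interval of its RPM ratio (9.20 to 18.5) lay above the 8.75-fold of the pan-endothelial sum but held the pan-endothelial median of 9.80-fold. For Higd1b the value in the Procr- library, 0.308 (0.124 to 0.635), could not be told from the 0.438 in the Procr+.

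**Figure D3:**
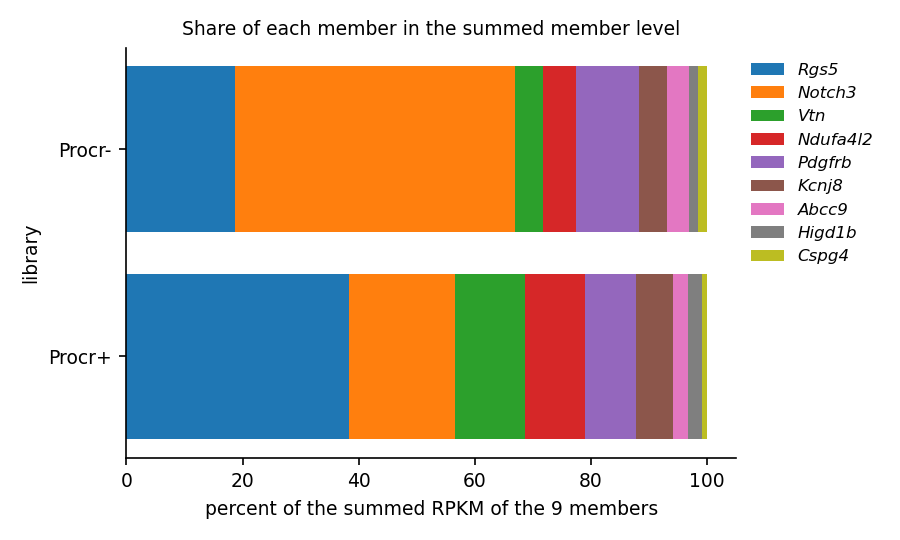
Share of each member in the summed RPKM of the 9 genes, in percent, for each library. Rgs5 takes 38.4% in the Procr+ and 18.7% in the Procr- library, and Notch3 takes 18.2% and 48.3%.

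Close relatives of the members did not behave alike. The other ATP-sensitive channel genes, Kcnj11 and Abcc8, which form the channel of pancreatic beta cells and neurons, were higher in the Procr- library. Kcnj11 was at 0.209 RPKM from 6 reads in the Procr+ and 3.09 RPKM from 92 reads in the Procr- library, 14.8-fold higher in the latter (6.54 to 41.3). Abcc8 was at 1.05 and 13.1 RPKM, 12.4-fold higher in the Procr- library (9.26 to 17.0). Among channel subunits, Abcc9 thus exceeded Abcc8 11.7-fold in RPKM (8.78 to 16.1) in the Procr+ library, and Abcc8 exceeded Abcc9 4.93-fold (4.19 to 5.83) in the Procr-. Kcnj8 exceeded Kcnj11 148-fold (67.4 to 404) in the first and was level with it in the second (1.07, 0.770 to 1.47).

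The other PDGF receptor gene, Pdgfra, a marker of fibroblasts, was at 0.561 RPKM in the Procr+ and 2.88 RPKM in the Procr- library, 5.13-fold higher in the latter (3.54 to 7.64). Pdgfrb exceeded it 76.8-fold (54.8 to 111) in the Procr+ but 2.55-fold (2.14 to 3.07) in the Procr- library. Of the other Notch receptors, Notch1 was at 66.2 and 36.6 RPKM (1.81-fold, 1.73 to 1.89), the endothelial Notch4 at 9.97 and 3.15 RPKM (3.16-fold, 2.69 to 3.73), and Notch2 at 6.45 and 20.5 RPKM, 3.18-fold higher in the Procr- library. Notch3 was thus the highest Notch receptor per length in the Procr+ library, and in the Procr- library Notch1 exceeded it 1.11-fold (1.06 to 1.17).

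The widely expressed relatives of the mitochondrial members went the other way. Higd1a, a hypoxia-inducible gene, was at 9.03 and 15.5 RPKM, and Ndufa4, a cytochrome c oxidase subunit, at 163 and 255 RPKM, so both were higher in the Procr- library (1.72-fold and 1.56-fold). Their log2 differences, −0.72 and −0.64 on RPKM + 1, lay below the −0.38 median of all genes and were below 0 under each scaling tried. Ndufa4 exceeded Ndufa4l2 3.23-fold in RPKM in the Procr+ library (2.87 to 3.63) and 64.9-fold in the Procr- (46.8 to 92.7). Higd1b was 1.34 times Higd1a (1.01 to 1.76) in the first, and Higd1a was 16.0 times Higd1b (7.65 to 40.1) in the second. Higd2a was at 66.0 and 88.0 RPKM. Cox4i2, an isoform of another cytochrome c oxidase subunit found in pericytes, was at 16.4 and 2.30 RPKM (7.13-fold, 4.20 to 12.9), against 338 and 470 RPKM for the general isoform Cox4i1, a comparison gene chosen after the values were seen.

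Relatives of Rgs5 gave no such contrast. Rgs16 was above Rgs5 in both libraries, at 263 and 16.1 RPKM (16.3-fold, 14.6 to 18.2), and Rgs4, also a mural marker, was at 63.7 and 9.14 RPKM (6.97-fold, 6.11 to 7.98). Rgs2 was at 17.7 and 11.6 RPKM (1.53-fold, 1.32 to 1.76). Cspg5, compared with Cspg4, had 10 and 7 reads, too few to order the libraries.

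**Figure D4:**
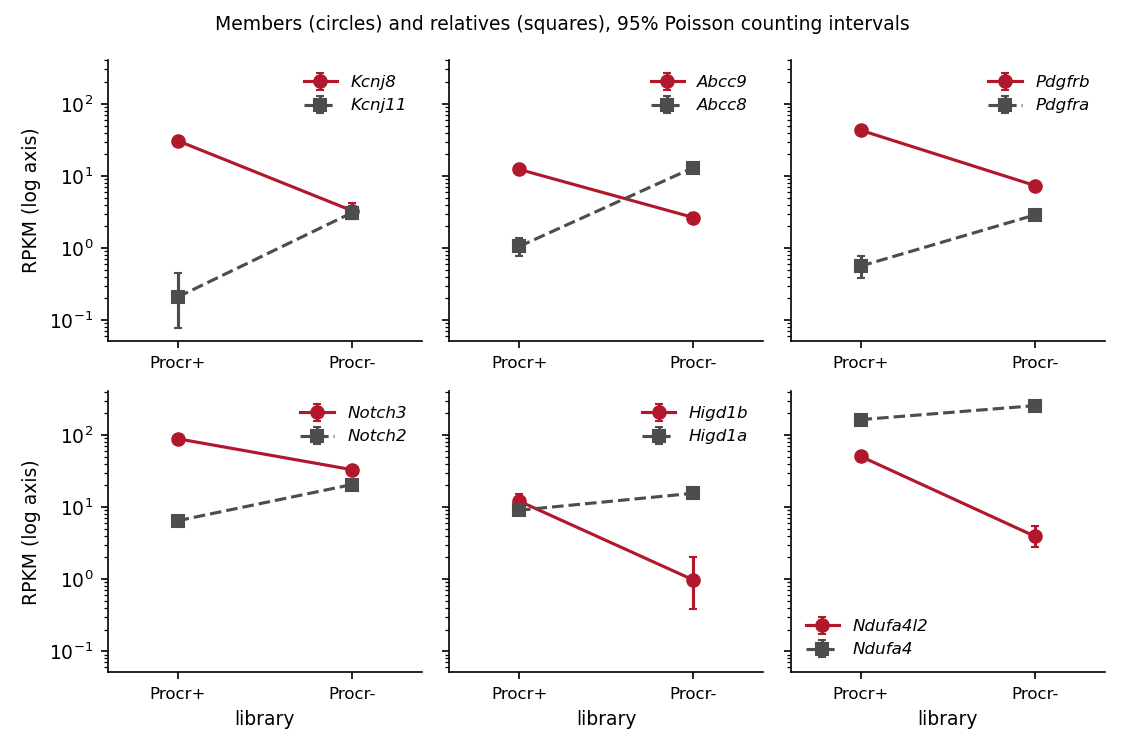
RPKM (log axis) of 6 members (red circles, solid lines) and a relative of each (grey squares, dashed lines) in the Procr+ and Procr- library, with 95% Poisson counting intervals. The pairs are Kcnj8 and Kcnj11, Abcc9 and Abcc8, Pdgfrb and Pdgfra, Notch3 and Notch2, Higd1b and Higd1a, and Ndufa4l2 and Ndufa4, in which the relative is higher in the Procr- library. Relatives that are not plotted and are lower there, among them Notch1, Notch4, Rgs16 and Rgs4, have their values in the text.

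Other genes associated with pericytes were also mostly higher with the endothelial genes, with a lower median. Of 20 such genes 17 reached 1 RPKM in a library. Of these, 15 passed 2-fold towards the Procr+ library, against 13.1% of all 12509 genes, and none towards the other, against 23.7%. The median log2 difference was 2.05, 1.11 below the pan-endothelial median. Among the 15, Tbx18, Gpr30, Pth1r and Gucy1a3 reached 1 RPKM only in the Procr+ library. Foxf2 and P2ry14 did not reach 1 RPKM, and Atp13a5 was not listed. The transcription factor gene Ebf1 differed most, at 67.8 against 4.33 RPKM (15.7-fold, 12.7 to 19.6). The nitric oxide receptor subunit genes Gucy1a3 and Gucy1b3 (now Gucy1a1 and Gucy1b1) were at 11.3 against 0.851 RPKM (13.3-fold, 9.53 to 19.0) and at 19.98 against 1.74 RPKM (11.5-fold, 8.70 to 15.5). Those short of 2-fold were Anpep, a peptidase gene (18.9 and 11.9 RPKM), and Cd248, the endosialin gene (1.998 and 1.41 RPKM), both named after their values were seen. Many of these genes are also expressed in other cells, Mcam for instance in endothelium.

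Most smooth muscle genes were also higher in the Procr+ library. The 15 genes summed to 1402 RPKM in the Procr+ and 259 RPKM in the Procr- library, a sum carried by Tagln, Myl9 and Acta2. Their median level in the Procr+ library was 23.0 RPKM, against 43.1 RPKM for the pericyte members. In the Procr- library the order was the reverse, at 4.16 RPKM against 3.30 RPKM. Of the 15, 11 passed 2-fold towards the Procr+ library, against 13.1% of all 12509 genes, and 1 towards the Procr- library, against 23.7%. The median log2 difference was 2.22, 0.95 below the pan-endothelial median. Among the 11, Myocd and Casq2 reached 1 RPKM only in the Procr+ library. The myosin light chain gene Myl9 was at 386 against 32.3 RPKM (11.9-fold, 10.7 to 13.4). The desmin gene Des was at 74.2 against 5.95 RPKM (12.5-fold, 10.4 to 15.1). Both ratios lay above the pan-endothelial median of 9.80-fold. The smooth muscle myosin gene Myh11 was at 117 against 11.6 RPKM (interval of the ratio 9.31 to 10.9), and Tagln, which encodes an actin-binding protein, at 460 against 53.1 RPKM (8.67-fold, 8.06 to 9.34). The gene that was 2-fold lower was Smtn, at 23.0 and 78.1 RPKM. Actg2 (1.05 and 2.10 RPKM) and Cnn1 (3.33 and 4.16 RPKM) were also lower in the Procr+ library, short of 2-fold on the log2(RPKM + 1) scale. The intervals of their ratios held 1 (0.237 to 1.002 and 0.564 to 1.13). Smtn, Actg2 and Cnn1 were named after their values were seen. Pericytes and smooth muscle cells share several of these genes, and which cells these transcripts came from was not tested.

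**Figure D5:**
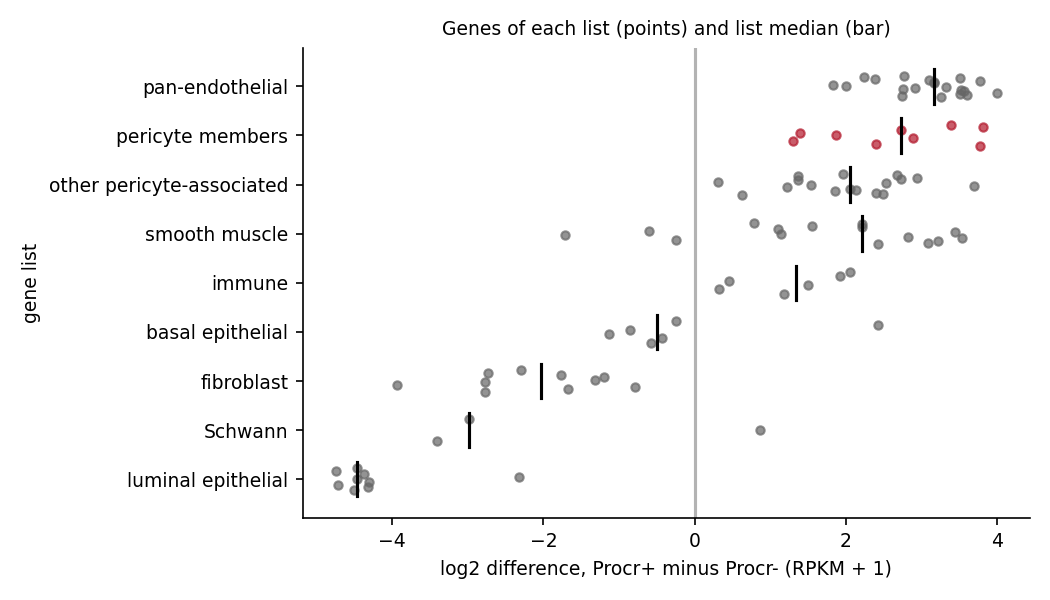
Log2 difference, Procr+ minus Procr- on RPKM + 1, of each gene (points) that reached 1 RPKM in a library, by gene list, with the list median (bar). The median of the 9 pericyte members (red, 2.73) lies between those of the pan-endothelial (3.16) and the smooth muscle genes (2.22). The single members run from 1.30 to 3.81. The median of the other pericyte-associated genes is 2.05, and that of the fibroblast genes −2.04.

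Genes of signalling between endothelium and pericytes did not all follow the endothelial genes. Pdgfb, the ligand of PDGFRB, was at 14.2 RPKM in the Procr+ and 15.2 RPKM in the Procr- library (0.931-fold, 0.810 to 1.07), while Pdgfd, another ligand of the receptor, was at 18.9 against 3.26 RPKM (5.80-fold, 4.35 to 7.85). The Notch ligand genes Jag1 and Dll4 were at 36.6 against 17.1 RPKM (2.13-fold, 1.97 to 2.31) and 37.1 against 8.45 RPKM (4.39-fold, 3.85 to 5.02). The Notch target genes Heyl, known from mural cells, and Hey1 were at 6.49 against 1.06 RPKM (6.11-fold, 4.46 to 8.55) and 32.1 against 6.18 RPKM (5.19-fold, 4.29 to 6.31), whereas Hes1 was at 184 and 169 RPKM (1.09-fold, 1.03 to 1.15). Angpt1, the agonist of the TIE2 receptor that pericytes supply, was at 3.94 and 2.56 RPKM (1.54-fold, 1.18 to 1.999), and Angpt2, its endothelial counterpart, at 62.0 and 7.99 RPKM (7.77-fold, 6.84 to 8.85). Of the 16 genes on the signalling list, which does not hold Heyl, 8 were 2-fold higher on the log2(RPKM + 1) scale and none was 2-fold lower. The shares of all 12509 genes were 13.1% and 23.7%, and the median log2 difference of the list was 0.97. Among the 8, Plxdc1 reached 1 RPKM only in the Procr+ library. For each 100 RPKM of pan-endothelial level, Pdgfb was at 0.513 in the Procr+ and 4.82 in the Procr- library. Which cells these transcripts came from was not tested.

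Fibroblast genes, the other mesenchymal list, gave the opposite pattern. None of 10 was 2-fold higher in the Procr+ library, against 13.1% of all 12509 genes, and 9 were 2-fold lower, against 23.7%. Their median log2 difference was −2.04. Among the 9, Pdgfra, Fbln1 and Mfap5 reached 1 RPKM only in the Procr- library. Dcn was 16.1-fold higher in the Procr- library (14.4 to 18.2) and Col1a1 7.22-fold higher (6.64 to 7.88). The members and the fibroblast genes therefore did not overlap, since the lowest member was at 1.30 and the highest fibroblast gene at −0.78.

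The genes with a log2 difference nearest to the members' median, among 1375 other genes with at least 50 RPKM in the Procr+ library, were Gdf15, Lmo2 and Kdr, at 2.73, 2.72 and 2.75. Likeness here is a single difference between 2 libraries, and the members' median, set by Higd1b, went from 2.73 to 3.19 with a pseudocount of 0.1 RPKM. Kdr, the main VEGF receptor gene of endothelium, was at 79.9 and 11.1 RPKM.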

How the data were processed

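Per the labels' protocols, total RNA of 1 Procr+ and 1 Procr- library was sequenced as single reads, of which those with a unique place in mm10 were kept. Aligner, counter, annotation and any use of strand: not given in the sources used here. Per the file headers, the deposited values are counts of uniquely placed reads for each gene, and a gene that is not listed was taken as 0 reads. The RPKM values, deposited by the authors, equalled reads per kb of listed length and per M unique reads. The coverage percent is the authors' deposited share of a gene's length covered.

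Levels are RPKM with exact Poisson intervals. Differences are log2 ratios of RPKM + 1, Procr+ over Procr-, for 12509 genes with at least 1 RPKM in a library, and a gene was counted as higher or lower from 2-fold. Folds of single genes are ratios of RPM with exact conditional binomial 95% intervals (scipy 1.17.1, Python 3.11.15). PCR copies are not independent molecules. No test was possible with 1 library per group. Calculations were tested on simulated data.

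The 9 members and 10 comparison lists were chosen with earlier results of these data known. Named genes are the members, their relatives, up to 4 genes per list with the largest absolute difference, the signalling list where needed and the 3 genes nearest to the members' median. Gene identifiers were matched to RefSeq of GRCm38.p6 (17285 of 17333), which gave coordinates (1-based, whole genes) and promoter windows. Alternatives varied the pseudocount, the filter, the scaling and the genes summed.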

Additional observations from a re-analysis of the deposited data

How the results depend on the processing

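The 9 members were above 0 in each of 72 values under 8 alternatives (pseudocounts of 0.1 and 0.5 RPKM, no filter, a filter of 5 RPKM, TPM, upper-quartile scaling, centring on the median of all genes, RPM with a prior of 1 read). The filter settings do not change a gene's value. Their values among the 72, that of Cspg4 included, therefore repeat the main ones and are no further check of sign. The filter of 5 RPKM removed Cspg4 and left 8 of 8 members 2-fold higher, against 14.4% of all genes that passed it. The other 7 kept 9. Under these 7 the share of all genes 2-fold higher went from 9.48% with no filter to 19.4% with centring on the median of all genes. Centring on the pan-endothelial median was different. It left 0 members and 0 pan-endothelial genes 2-fold higher, 3 members and 2 pan-endothelial genes lower, and 14 genes higher and 11997 lower among all, since it subtracts 3.16 from every value. The members' median then became −0.43, Pdgfrb −0.76, Cspg4 −1.86, Kcnj8 −0.27, Abcc9 −1.29, Notch3 −1.76 and Higd1b −0.43. Vtn, at 0.65, Rgs5, at 0.61, and Ndufa4l2, at 0.22, stayed above 0. Centring on the median of all genes left 1644 genes lower, and higher genes made up 59.6% of calls against 35.7% on the main scale and 51.5% with upper-quartile scaling. For each 100 RPKM of pan-endothelial level, the members' sum was 10.9 (Procr-positive) and 17.6 (Procr-negative) without Rgs5, 12.6 and 16.8 with Pecam1 and Eng added to the endothelial list, and 14.4 and 11.2 without Notch3, the setting that turned the order. No paired analysis was possible because each group has 1 library. Depth limits Higd1b most, with 7 reads in the Procr-negative library.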
